A study of Mus musculus with 24 samples.

Results

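Mitochondrial ribosomal protein genes were taken from the gene count table by their symbols, Mrpl or Mrps followed by a number and at most 1 letter. The rule found 78 of the 22429 genes, 49 named for the large subunit and 29 for the small subunit. By where the proteins sit in the known structure of the mammalian mitochondrial ribosome, 51 belong to the large subunit and 26 to the small one. Mrps30 and Mrps18a carry small-subunit names but lie in the large subunit. Mrps36 is now known as a subunit of the oxoglutarate dehydrogenase complex and is no ribosomal protein. The genes lie on 17 chromosomes, 11 of them on chromosome 11 and 8 on chromosome 17, and all 78 passed the filter on low counts that 12211 genes of the table passed.

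The measurement was ribosome profiling of liver, in which the mRNA fragments that ribosomes shield from RNase are sequenced, so a count is a ribosome footprint on a gene. The 24 libraries came from livers of male F1 hybrids of C57BL6J and FVBN, 4 in each of 6 groups. Wild-type mice (Ercc1 +/+) were 16 weeks old and fed freely, 16 weeks old under 30% dietary restriction, or 104 weeks old and fed freely. Mutants (Ercc1 d/-) were 7 or 16 weeks old and fed freely, or 16 weeks old under 30% dietary restriction. Restriction began at 7 weeks of age and reached its full level at 9 weeks, and no food was given on the day of collection before the livers were taken. Ercc1 is a subunit of a DNA repair endonuclease, and mice of the mutant genotype age early. Total counts ran from 13366558 to 27084259 per library, of which the members took 0.133% to 0.195%. The Ercc1 gene had 34 to 110 counts in the wild-type libraries and 1 to 15 in the mutant libraries. Libraries of a group differed from one another by more than counting noise. The labels number the livers within a group without further detail, so p-values measure the spread between these livers. Hepatocyte markers such as Alb were abundant in every library, while the defining T and B cell markers Cd3e, Cd79a and Ms4a1 were at 0 in some libraries. The antibody genes Igkc and Ighm were above 0 in every library.

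The mitochondrial ribosome translates the few mRNAs of the mitochondrial genome, all of which code for subunits of the respiratory chain and the ATP synthase. Its RNA comes from the mitochondrial genome, but every one of its proteins is encoded in the nucleus, translated by cytosolic ribosomes and imported. Footprints on Mrpl and Mrps genes therefore report the work of cytosolic ribosomes, and footprints on the mt- genes report the work of the mitochondrial ribosome itself. Many of its proteins descend from bacterial ribosomal proteins and others are found in mitochondria alone. In the classes used here, 46 of the members count as having a bacterial counterpart and 31 as mitochondria-specific. The 31 include Mrps18a and Mrps18b, although Mrps18c of the same family counts among the 46, so the division is not strictly one of descent. Liver is rich in mitochondria, and fatty acid oxidation and the urea cycle depend on them. The mRNA libraries of the same livers were not analysed here, so a change in footprints is not divided into mRNA level and translation per mRNA. In whole liver, fewer cells of a type and less RNA per cell cannot be told apart.

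Promoter windows in RefSeq (GRCm38.p6), 250 bases before to 50 bases after a start, were present for 69 of the 78 members in 75 windows, and the other 9 members had none. Each motif was searched on both strands. The ETS core CGGAAG stood in 40 member windows (53.3%), against 16.9% of all 32851 windows and 21.6% of those of protein-coding genes in the count table. The YY1 core AAGATGGCG stood in 8 (10.7%), against 1.4% of all windows and 1.9% of protein-coding ones. The palindromic NRF1 core, spelled in capitals in the Mrpl39 sequence, stood in only 3 (4%), against 0.971% and 1.38%. ETS, YY1 and NRF1 are factor families known for the promoters of housekeeping and mitochondrial genes. The NFY core ATTGG was about as frequent in member windows (40%) as in all windows (37.4%) and protein-coding ones (38.1%). TATAAA was found in 6.67% of member windows, against 13.6% of all and 12.4% of protein-coding windows. The median GC content was 58.7% in member windows, 57% in protein-coding windows and 52.7% in all windows. None of the 5 motifs contains another.

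The sequences below are the upstream stretches of Mrps12, Mrpl20 and Mrpl18, which passed the test both under restriction in mutants and between restricted genotypes, and of Mrpl39, which holds the full NRF1 core. Mrpl14, Mrps7, Mrps21 and Mrps30 passed in both as well and are not printed. The windows of Mrpl14 and Mrps7 held none of the motifs, that of Mrps21 an ETS core and that of Mrps30 an NFY core. Each ends at the base before the start used for its promoter window and stops short of the nearest other annotated gene, so the length varies. For Mrpl18 that start lies inside the annotated gene, which runs from 12911345 to 12917787. Its stretch is thus upstream of an internal start and not of the whole gene. They are written 5′ to 3′ on the gene's strand, with ETS, NRF1 and NFY cores in capitals. Mrps12 lies on the minus strand at chr7:28741822-28741956, Mrpl20 on the plus strand at chr4:155802628-155802877, Mrpl18 on the minus strand at chr17:12916092-12916328 and Mrpl39 on the minus strand at chr16:84735245-84735494.
Mrps12, NFY cores at 108, 68 and 19 bases before the start: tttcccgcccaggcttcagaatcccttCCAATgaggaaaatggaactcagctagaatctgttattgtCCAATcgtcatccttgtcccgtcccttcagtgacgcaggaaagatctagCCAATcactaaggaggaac
Mrpl20, an ETS core 8 bases before the start: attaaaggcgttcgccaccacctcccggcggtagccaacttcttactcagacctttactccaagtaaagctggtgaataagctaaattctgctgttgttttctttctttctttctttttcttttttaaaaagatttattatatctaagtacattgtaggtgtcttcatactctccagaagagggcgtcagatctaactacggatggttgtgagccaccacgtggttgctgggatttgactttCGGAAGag
Mrpl18, an ETS core at 171 and an NFY core at 110 bases before the start: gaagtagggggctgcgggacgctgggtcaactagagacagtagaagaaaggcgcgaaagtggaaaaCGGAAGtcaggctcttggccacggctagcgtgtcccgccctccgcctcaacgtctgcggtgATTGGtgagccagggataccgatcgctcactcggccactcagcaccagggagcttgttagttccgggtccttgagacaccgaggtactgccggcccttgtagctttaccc
Mrpl39, an NFY core at 223 and the NRF1 core at 125 bases before the start: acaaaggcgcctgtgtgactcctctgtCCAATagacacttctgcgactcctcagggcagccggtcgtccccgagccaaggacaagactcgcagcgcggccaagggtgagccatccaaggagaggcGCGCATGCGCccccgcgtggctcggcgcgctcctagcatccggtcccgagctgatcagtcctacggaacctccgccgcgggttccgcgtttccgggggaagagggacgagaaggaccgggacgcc
The Mrps12 stretch is the whole 135-base gap to Sars2, which starts on the other strand and encodes the mitochondrial seryl-tRNA synthetase. The stretches are shorter than the windows in which motifs were counted. The printed Mrps12 stretch held no ETS, YY1 or NRF1 core, but its 300-base window held an ETS core outside the stretch and is counted among those with one. The Mrpl20 window likewise held an NFY core outside the printed stretch. A match is a string of letters and was not tested as a binding site. Among the 20 members with a window that passed the test in at least 1 comparison, 13 had an ETS core, 1 a YY1 core and 1 an NRF1 core. Among the other 49 members with a window, 26, 7 and 2 had them.

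Summed over the 78 genes, footprints held nearly the same level in every group. Levels are in CPM, counts scaled by library size, as mean ± SD of 4 libraries. The sum was 1636 ± 44.4 CPM in fed wild-type liver at 16 weeks, 1677 ± 147 under restriction and 1554 ± 15.5 at 104 weeks. In mutants it was 1659 ± 59.9 at 7 weeks, 1641 ± 77.5 at 16 weeks and 1611 ± 62.5 under restriction. The highest group mean was that of restricted wild types, whose libraries ran from 1522 to 1869 and enclosed the range of all others (1534 to 1717). The 4 old wild types (1534 to 1572) lay below the 4 young ones (1584 to 1678). No test was made of these sums.

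Both subunits kept their proportion. Large-subunit genes drew 1104 ± 30.2 CPM and small-subunit genes 521.3 ± 17.5 CPM in fed wild types at 16 weeks, a ratio of 2.12 ± 0.042. Over the 6 groups the mean ratio ran from 2.10 to 2.14, and single libraries ran from 1.98 to 2.20. Genes with a bacterial counterpart drew 984.6 ± 22.7 CPM in fed young wild types and 929.4 ± 31.8 in restricted mutants. Genes classed as mitochondria-specific drew 640.9 ± 23.4 and 670.6 ± 37.8 CPM in the same groups.

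Other gene groups of the same livers differed more between group means. The 79 cytosolic ribosomal protein genes summed to 6309 ± 804 CPM in fed wild types at 16 weeks and to 13890 ± 1320 CPM under restriction. In mutants the same sum went from 6517 ± 2780 to 12690 ± 1360 CPM. Footprints on cytosolic ribosomal protein genes were thus 3.85 ± 0.442 times those on mitochondrial ribosomal protein genes in fed wild types and 8.38 ± 1.42 times under restriction, with libraries of 3.399 to 4.405 and 6.39 to 9.70. In mutants the ratio went from 3.96 ± 1.61 to 7.87 ± 0.765, again without overlap. The 76 nuclear-encoded respiratory chain genes summed to 13230 ± 589 CPM in fed young wild types, 11090 ± 640 at 104 weeks and 15220 ± 1010 in restricted mutants, and the ratio to the members was 8.09 ± 0.387, 7.14 ± 0.401 and 9.44 ± 0.316.

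The 13 protein genes of the mitochondrial genome, which the mitochondrial ribosome reads, varied widely between livers. Their sum was 3143 ± 1520 CPM in fed young wild types, with single libraries from 1178 to 4375, and 1275 ± 855 CPM at 104 weeks, from 521.2 to 2357. In restricted mutants it was 5447 ± 4100 CPM, and 1 library at 11400 stood far above the rest. Cycloheximide, present in the lysis buffer, arrests cytosolic and not mitochondrial ribosomes. Its part in this spread was not tested.

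**Figure D1:**
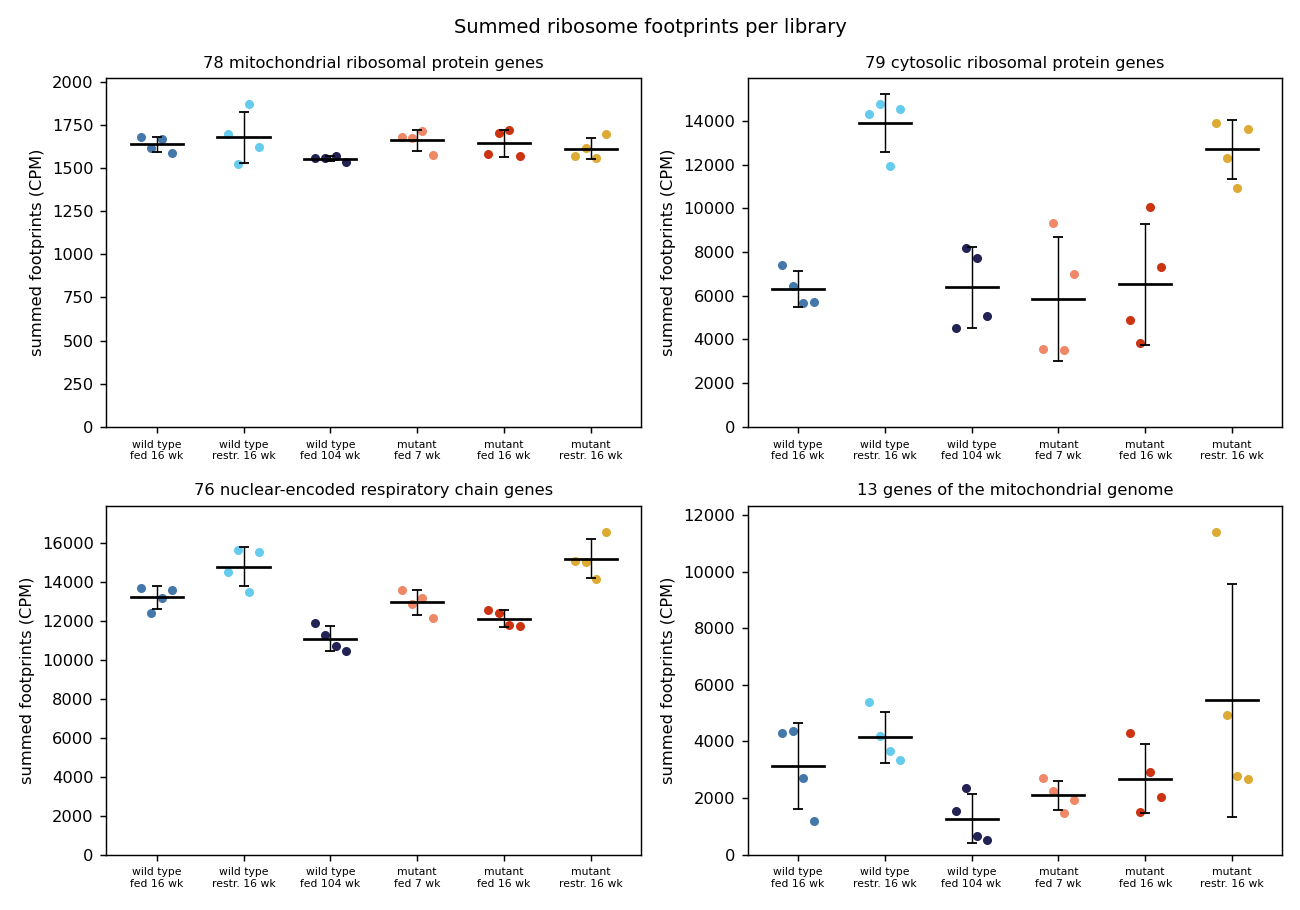
Summed footprints in CPM per library, with points for the 24 libraries in their 6 groups and bars for the group mean ± SD, in 4 gene groups with separate linear axes from 0. The sums of the 78 members lie between 1522 and 1869 CPM in all libraries, while the cytosolic ribosomal protein sum is higher in both restricted groups and the mitochondrially encoded sum is scattered.

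The spread of single members between livers was small. The median biological coefficient of variation between livers of a group was 14.9% for the members (12.4% to 30.8%), against 18.7% for 5828 other genes with mean levels in the members' range. Mean CPM over all libraries ran from 4.93 for Mrps6 to 64.5 for Mrpl15, with a median of 20.2. These levels are not per length and say nothing about which protein is made most. Each comparison below was read from 1 edgeR quasi-likelihood fit over all 12211 genes with Benjamini-Hochberg adjusted p, and a gene passed at an adjusted p under 0.05. Log2 changes are followed by their standard error. In the 7 comparisons, 23 members passed at least once, 10 passed in 2 or more, and 55 passed in none. The comparisons share libraries (fed wild types at 16 weeks enter 3 of the pairwise ones), so their counts are not independent. The middle 50% of the members' log2 changes spanned 0.209 to 0.374, against 0.376 to 0.659 for all genes. All genes were not matched to the members' levels here, and the part of level in this contrast was not tested. Mrps12 was the 1 member that changed by more than 2-fold anywhere.

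**Figure D2:**
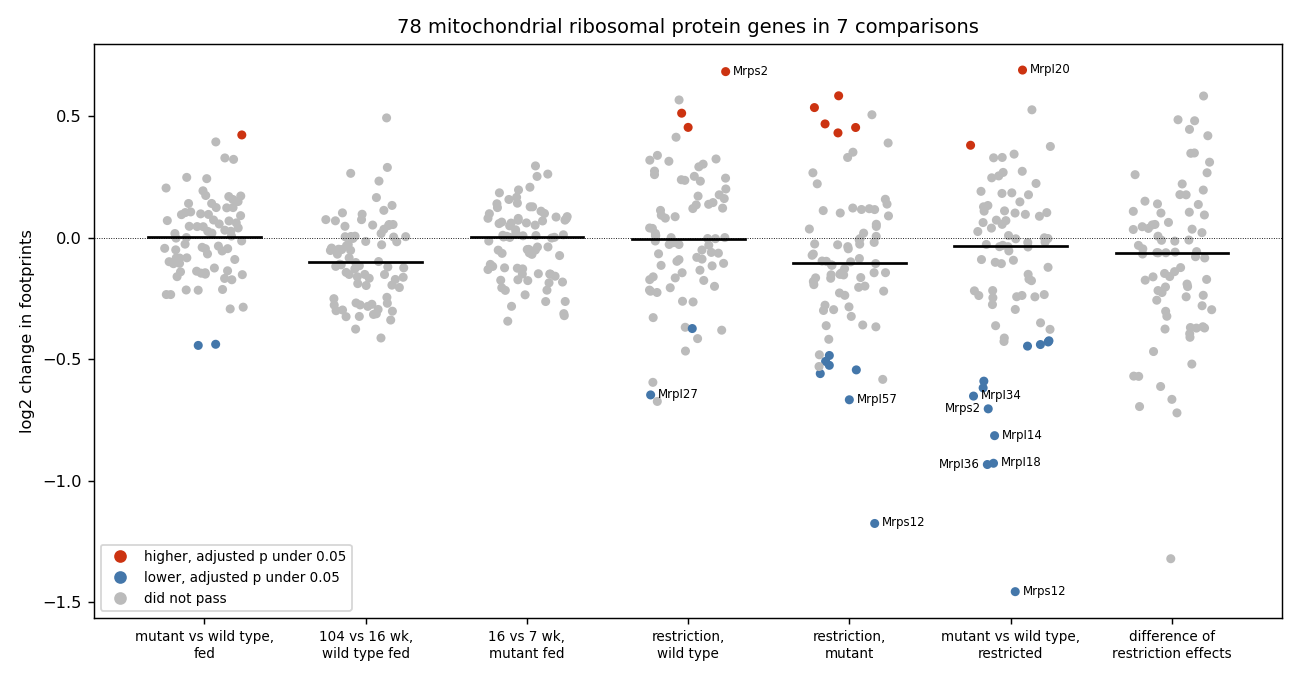
Fitted log2 change in footprints of the 78 members (vertical axis) in the 7 comparisons (horizontal axis), 1 point per gene, with a bar at the median; horizontal scatter within a column has no meaning. Red and blue points passed at an adjusted p under 0.05 (edgeR), and those past 0.64 are named; most points lie within 0.5 of 0, and Mrps12 falls lowest in the restricted mutants.

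In freely fed mice at 16 weeks, few members differed by genotype. In mutants, 1 member was higher and 2 were lower, 3.85% of the members against 10.7% of all genes tested (5.69% higher and 5.04% lower), and the members' median log2 change was 0.00, against 0.01 for all genes. The lower ones were Mrpl14, a bacterial-type protein at the face where the subunits meet, and Mrps28, a small-subunit protein. The higher one was Mrps31, a small-subunit protein without a bacterial counterpart. In 5 members all 4 mutant libraries lay above the 4 wild-type ones and in 3 below, 10.3% of the members, against 22.2% of all genes.

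Mrpl14 had 37.6, 35.1, 34.1 and 38.3 CPM in fed wild types and 20.7, 29.0, 31.8 and 25.1 CPM in fed mutants. The groups did not overlap, and the change was -0.44 ± 0.13 (edgeR adjusted p = 0.0278). Mrps28 had 25.9, 23.2, 25.8 and 25.5 CPM in fed wild types and 17.5, 19.5, 17.1 and 20.0 CPM in fed mutants, a change of -0.44 ± 0.12 (edgeR adjusted p = 0.0173). The Mrps28 gene overlaps a pseudogene and 2 lncRNA genes in the annotation. Mrps31 had 22.3, 21.9, 22.5 and 21.2 CPM in fed wild types and 33.6, 29.7, 27.2 and 27.6 CPM in fed mutants. Its change was 0.42 ± 0.12 (edgeR adjusted p = 0.0263), and the fed wild types at 16 weeks were the lowest 4 of all 24 libraries. The calls were weak: without mutant replicate 1 none of the 3 passed (adjusted p of 0.124 for Mrpl14, 0.0563 for Mrps28 and 0.102 for Mrps31), and leaving out 1 library at a time ended the call of Mrpl14 in 5, of Mrps28 in 2 and of Mrps31 in 6 of 8 fits. With total counts as the only scaling, Mrpl14 (-0.33, adjusted p = 0.202) and Mrps28 (-0.33, adjusted p = 0.149) did not pass. Markers of Kupffer cells and macrophages moved with the genotype, all 10 of 10 passing upward and summing to 231.2 CPM (214.1 to 244.3) in fed wild types and 462.8 CPM (381.2 to 515.4) in fed mutants. Of 6 stellate cell and fibroblast markers 3 passed upward, as did 2 of 3 neutrophil and 1 of 3 B and plasma cell markers tested. Of 7 hepatocyte markers 1, Ttr, passed downward. The part of these cell types in these changes was not tested.

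Between 16 and 104 weeks in wild types, and between 7 and 16 weeks in mutants, no member passed. With age in wild types 9.34% of all genes passed by edgeR (4.75% upward and 4.59% downward), 8 members (10.3%) had an unadjusted p under 0.05 against 23.2% of all genes, and the members' median was -0.10 against 0.01 for all genes. The 4 old livers lay above the 4 young ones in 2 members and below in 6, 10.3% of the members against 17.6% of all genes. Mrpl15, a large-subunit protein of bacterial type, had 57.9, 52.4, 60.2 and 70.2 CPM at 16 weeks and 50.8, 47.1, 47.8 and 49.5 CPM at 104 weeks, so all old livers were below the young ones. In mutants from 7 to 16 weeks 0.434% of all genes passed (0.246% upward and 0.188% downward), 2 members (2.56%) had an unadjusted p under 0.05 against 9.57% of all genes, and the median was 0.00. By DESeq2 no member passed in either comparison, where 7.35% and 0.825% of 19641 genes did. These shares were taken without the filter on low counts and are not comparable with those of edgeR. With age, 6 of the 76 nuclear-encoded respiratory chain genes (7.89%) fell and none rose, with Ndufb4 at -0.61 ± 0.13 and Sdhd at -0.49 ± 0.11. Of the 13 mitochondrially encoded genes none passed, with a median of -1.29 and 12 at an unadjusted p under 0.05, against 23.2% of all genes. These 13 genes are not independent replicates. Their sums overlapped, at 1178 to 4375 CPM in young and 521.2 to 2357 CPM in old livers. Cell type markers moved with age too. Of 10 Kupffer cell and macrophage markers 7 rose and none fell, and their sum went from 231.2 CPM (214.1 to 244.3) to 360.3 CPM (319.6 to 407). The 3 of 6 B and plasma cell markers that were tested, Igkc, Ighm and Jchain, all rose (median 4.36), with a sum over the 6 of 2.75 CPM (1.40 to 4.23) in young and 54.7 CPM (34.8 to 83.0) in old livers. Of 3 neutrophil markers tested 2 rose, and the sum of the 4 went from 0.568 CPM (0.414 to 0.760) to 6.22 CPM (3.73 to 9.55). Of 7 hepatocyte markers 1 fell and 1 rose, with a median of 0.12. Alb fell by 0.62 ± 0.19 (edgeR adjusted p = 0.0352) and Cps1 rose by 0.49 ± 0.16 (edgeR adjusted p = 0.0483). The hepatocyte markers summed to 147800 CPM (143900 to 155100) in young and 117500 CPM (87660 to 159200) in old livers, with overlap. The part of these cell types in the changes with age was not tested.

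Dietary restriction in wild types raised 3 members and lowered 2, 6.41% of the members against 12.1% of all genes (5.44% up and 6.71% down), with a median of 0.00 (0.02 for all genes). Mrps2, a small-subunit protein of bacterial type, Mrpl50 and Mrps31, both without a bacterial counterpart, rose. Mrpl27, whose bacterial relative reaches into the peptidyl transferase centre, and Mrps28 fell. All 4 restricted libraries lay above the fed ones in 2 members and below in 5, 8.97% of the members against 14.6% of all genes. Hepatocyte markers summed to 147800 CPM (143900 to 155100) in fed and 208000 CPM (173200 to 241800) in restricted wild types, with 1 of 7 passing upward. The Kupffer cell and macrophage sum went from 231.2 CPM (214.1 to 244.3) to 321.5 CPM (262.7 to 391.5), with 2 of 10 passing upward. Of 6 stellate cell and fibroblast markers 3 passed upward, and of 3 erythroid markers 1 passed downward. The part of these cell types in these changes was not tested.

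Mrpl27 had 23.1, 23.5, 28.4 and 22.9 CPM in fed wild types and 15.6, 16.2, 16.9 and 13.8 CPM in restricted ones, and the groups were well apart. Its change was -0.65 ± 0.13 (edgeR adjusted p = 0.00114). The restricted wild types were the lowest 4 of all 24 libraries for Mrpl27, since the other groups had at least 18 CPM. In mutants the change was -0.16 ± 0.13 (adjusted p = 0.448), and the difference between the genotypes' changes was 0.48 ± 0.18 (adjusted p = 0.216), so the genotypes were not shown to differ.

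Mrps31 rose to 31.5, 28.6, 30.2 and 30.2 CPM, by 0.45 ± 0.12 (edgeR adjusted p = 0.0155). Mrps2 had 18.4, 15.9, 18.2 and 20.4 CPM in fed wild types and 31.9, 15.2, 34.5 and 35.7 CPM in restricted ones. Restricted replicate 2 was at the level of the fed livers while the other 3 were far above, and the change was 0.68 ± 0.18 (adjusted p = 0.0142), or 0.90 without that library. Mrps2 overlaps the gene 1700007K13Rik by 374 bases on the other strand, and the use of strand in counting is not given in the sources used here. Mrpl50 rose by 0.51 ± 0.17 (adjusted p = 0.043) with overlapping groups, and lost the call without fed replicate 1, 2 or 4 or restricted replicate 1 or 4 (adjusted p up to 0.163). Mrps28 fell by 0.37 ± 0.12 (adjusted p = 0.0379) and, of the 8 fits without 1 library, passed only in that without restricted replicate 2, with adjusted p up to 0.132. A fit of the 2 groups alone called 1 member, Mrpl27, while 10 members passed without restricted replicate 2. Over all genes the same fits called 658 of 11499 and 1801 of 12369, in place of 1483 of 12211, so the counts of all genes moved the same way.

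In mutants, restriction raised 5 members and lowered 7. These are 15.4% of the members against 11.6% of all genes (5.59% up and 6.04% down), and the members' median was -0.10 (0.00 for all genes), with 53 of the 78 below 0. Mrps12 at the decoding centre, Mrpl57, Mrpl18 of the central protuberance, Mrpl14, Mrpl10 of the stalk base, Mrps21 and Mrps7 of the small-subunit head fell. Mrpl20, Mrpl15, Mrps35, Mrpl3 near the peptidyl transferase centre and Mrps30 rose. In 7 members all 4 restricted mutants lay above the 4 fed ones and in 8 below, 19.2% of the members against 17.5% of all genes. Falls and rises thus occurred in both subunits: 4 rises and 4 falls among large-subunit genes, and 1 rise and 3 falls among small-subunit genes. Hepatocyte markers summed to 123500 CPM (105100 to 140000) in fed and 174200 CPM (159400 to 198300) in restricted mutants. Of these 7 markers, 2 passed upward and 2 downward. Of 10 Kupffer cell and macrophage markers none passed, and of 6 endothelial markers 2 passed upward. The part of these cell types in the changes under restriction was not tested.

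Mrps12 had 8.18, 11.8, 15.7 and 9.11 CPM in fed mutants and 4.58, 4.87, 5.24 and 5.07 CPM in restricted mutants. All restricted mutants were below all fed ones, and the change was -1.18 ± 0.24 (edgeR adjusted p = 0.0014). In wild types Mrps12 had 11.6, 12.1, 11.1 and 14.5 CPM when fed and 10.9, 9.15, 22.7 and 11.6 CPM when restricted, a change of 0.15 ± 0.23 (adjusted p = 0.742). The difference between the genotypes' changes was -1.32 ± 0.33 and missed the threshold (edgeR adjusted p = 0.0531), with adjusted p from 0.017 to 0.122 over the alternatives. Restricted wild-type replicate 3, at 22.7 CPM, carries some of that difference, which was -0.99 without it. It passed without restricted wild-type replicate 1, 2 or 4 or fed mutant replicate 1, at adjusted p from 0.0216 to 0.0444.

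Mrpl20 showed the opposite pattern. It had 20.2, 20.1, 21.4 and 22.0 CPM in fed mutants and 33.4, 30.6, 29.4 and 32.2 CPM in restricted mutants, a change of 0.58 ± 0.12 (edgeR adjusted p = 0.00155). In all 20 other libraries it lay between 16.4 and 22.6 CPM, so the restricted mutants stood alone. In wild types the change was 0.00 ± 0.12 (adjusted p = 0.998), and the difference between genotypes was 0.58 ± 0.17 (adjusted p = 0.098), which did not pass.

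Mrpl14 fell from the values above to 18.9, 20.3, 17.2 and 16.8 CPM, by 0.54 ± 0.13 on the log2 scale (edgeR adjusted p = 0.00689). Mrpl10 had 20.4, 24.2, 22.1 and 21.0 CPM in fed mutants and 15.3, 15.7, 16.0 and 13.9 CPM in restricted ones, a change of -0.53 ± 0.12 (adjusted p = 0.00505). Mrpl15 had 58.3, 65.5, 57.0 and 64.4 CPM in fed mutants and 87.6, 73.6, 87.8 and 106.7 CPM in restricted ones, a change of 0.54 ± 0.12 (adjusted p = 0.00357). In wild types its change was 0.34 ± 0.12 and missed the threshold (adjusted p = 0.0627). Mrpl57 fell by 0.67 ± 0.16 (adjusted p = 0.00627), with 7.64 to 12.7 CPM in restricted mutants against 13.8 to 20.7 CPM in fed ones. For Mrpl57 the change in wild types was -0.47 ± 0.16 and missed the threshold narrowly (adjusted p = 0.0526).

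The remaining members of this group changed by 0.43 to 0.56 in size on the log2 scale. Mrps21 fell by 0.51 ± 0.14 and lost the call without fed replicate 3 or 4 or restricted replicate 3 (adjusted p up to 0.0591). Mrps7 fell by 0.48 ± 0.14 and lost it without fed replicate 2 or 3 or restricted replicate 3 (adjusted p up to 0.077). Mrpl18 fell by 0.56 ± 0.18 with overlapping groups and passed only without fed replicate 1 or 4 among the 8 fits that left out 1 library. Without fed mutant replicate 3 its change was -0.36 (edgeR adjusted p = 0.215). Mrps35 rose by 0.47 ± 0.14, Mrpl3 by 0.45 ± 0.15 and Mrps30 by 0.43 ± 0.14. With 1 library left out, Mrps35 lost the call in 4 of 8 fits (fed replicate 1 or 2, restricted replicate 1 or 4), Mrpl3 in all but that without restricted replicate 3, and Mrps30 in 5 (fed replicate 2, 3 or 4, restricted replicate 2 or 4). The highest adjusted p was 0.0893, 0.146 and 0.148. Without fed mutant replicate 2 or 3 the number of members that passed was 7 in place of 12, and of all genes 968 and 1108 passed in place of 1420.

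**Figure D3:**
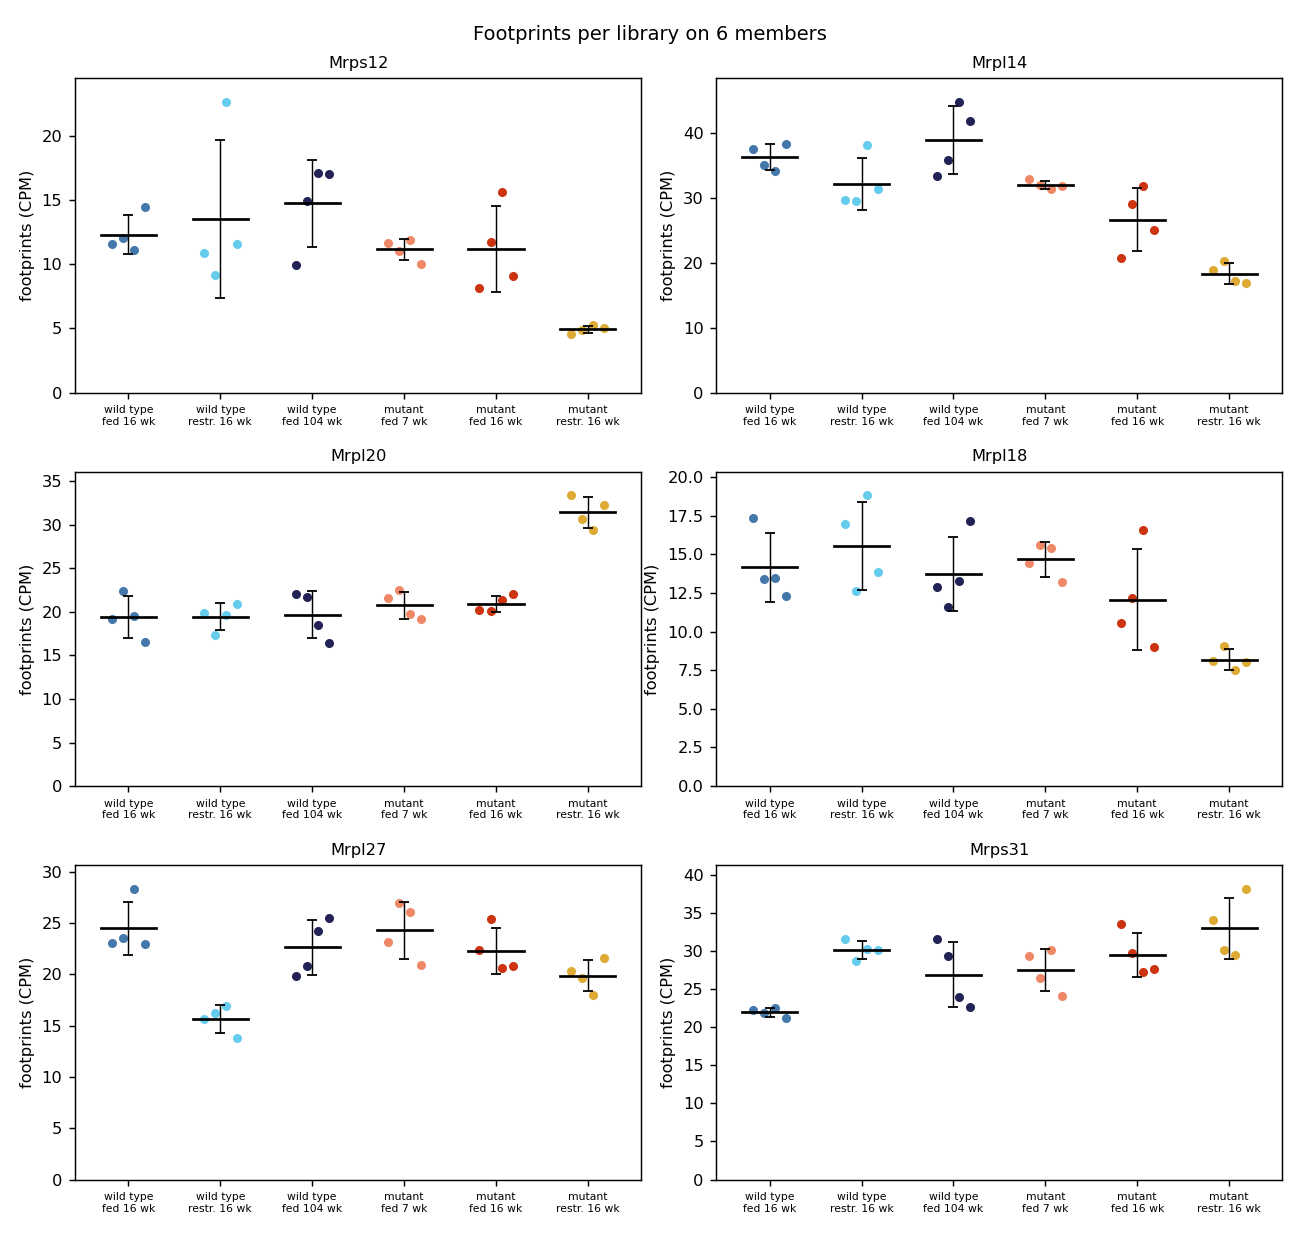
Footprints in CPM per library on Mrps12, Mrpl14, Mrpl20, Mrpl18, Mrpl27 and Mrps31 in the 6 groups, each panel with its own linear axis from 0; points are libraries and bars are the group mean ± SD. The 4 restricted mutants are lowest for Mrps12 (4.58 to 5.24 CPM) and Mrpl14 and highest for Mrpl20 (29.4 to 33.4 CPM), and the 4 restricted wild types are lowest for Mrpl27 (13.8 to 16.9 CPM).

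No member passed under restriction in both genotypes: 5 passed in wild types alone, 12 in mutants alone and 61 in neither. The difference between the genotypes' changes passed for no member by edgeR, against 0.803% of all genes (0.516% positive and 0.287% negative), with 12 members (15.4%) at an unadjusted p under 0.05, against 12.7% of all genes. By DESeq2, without the filter on low counts, 2 members and 271 of 19641 genes (1.38%) passed, a share not comparable with that of edgeR. Members called in 1 genotype were therefore not shown to respond differently in the other. The 2 comparisons share no library. Across the 78 members, which are not independent replicates, the changes in wild types and mutants had a Pearson correlation of 0.379, against 0.582 across all genes, and 53 members (67.9%) had the same sign, against 65.7% of all genes.

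**Figure D4:**
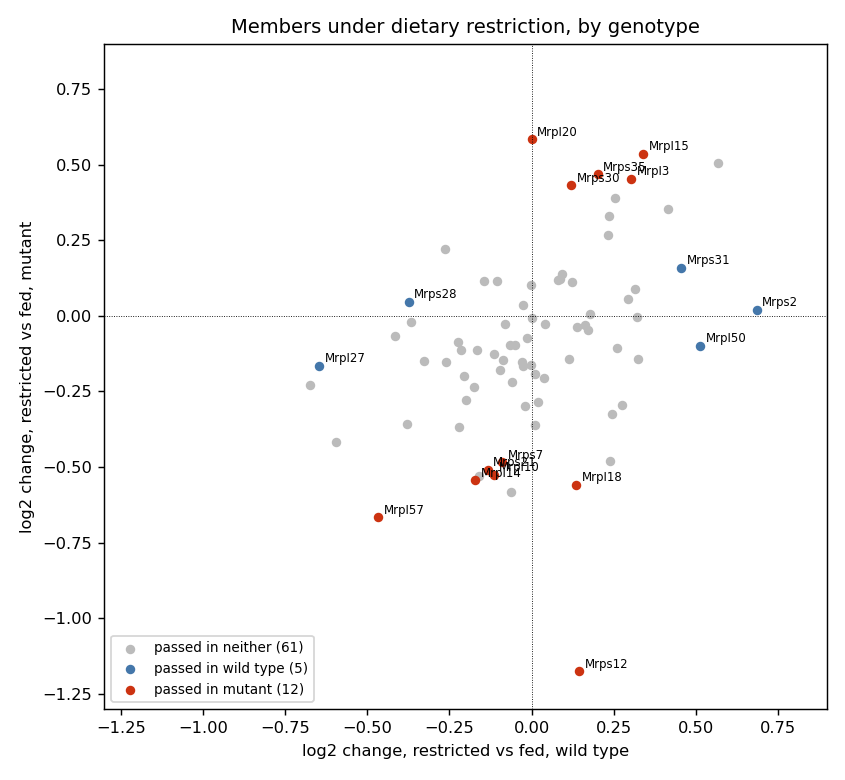
Log2 change of each of the 78 members under restriction in wild types (horizontal axis) against mutants (vertical axis), coloured by the genotype in which it passed at an adjusted p under 0.05 (edgeR). Of the 17 named genes 5 passed in wild types and 12 in mutants, none passed in both, and Mrps12 lies lowest, at -1.18 in mutants and 0.15 in wild types.

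The comparison of mutants with wild types, both restricted, gave the most calls. In mutants, 12 members were lower and 2 higher, 17.9% of the members against 18.2% of all genes. By direction, the 12 lower ones are set against 8.85% of all genes that were lower, and the 2 higher ones against 9.38% that were higher. The members' median was -0.03 (-0.01 for all genes). All 4 mutants lay below the 4 wild types in 11 members and above in 2, 16.7% of the members against 15.2% of all genes. Among the 12 lower members 8 belong to the large and 4 to the small subunit, and 9 of the 46 members with a bacterial counterpart and 3 of the 31 without one were among them.

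Mrps12 differed most, at -1.46 ± 0.24 (edgeR adjusted p = 0.000111) for the values above, or -1.11 without restricted wild-type replicate 3. Mrpl36, a small bacterial-type protein of the large subunit, had 9.26, 7.74, 15.4 and 14.7 CPM in restricted wild types and 7.04, 4.92, 6.16 and 6.53 CPM in restricted mutants. The groups were close but apart, with a difference of -0.93 ± 0.23 (adjusted p = 0.00498). Mrpl18 had 16.9, 12.6, 18.8 and 13.8 CPM in restricted wild types and 8.13, 9.07, 7.49 and 8.06 CPM in restricted mutants, a difference of -0.93 ± 0.18 (adjusted p = 0.000552). Its gene overlaps Tcp1 by 1459 bases on the other strand, so reads of the 2 genes cannot be told apart if strand was not used.

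Mrpl14 had 29.6, 29.6, 38.1 and 31.4 CPM in restricted wild types, and mutants were lower by -0.81 ± 0.13 (edgeR adjusted p = 9.69e-05). Its gene overlaps Tmem63b by 622 bases on the other strand. Mrps2 (-0.70 ± 0.18, with overlapping groups) and Mrpl34 (-0.65 ± 0.16), a short bacterial-type protein, were lower as well, at adjusted p of 0.00825 and 0.00498. Mrps21, Mrpl49, Mrpl43, Mrpl39, Mrps7 and Mrpl30 were lower by 0.42 to 0.62 on the log2 scale. Mrpl20 was higher by 0.69 ± 0.12 (adjusted p = 0.000214) and Mrps30 by 0.38 ± 0.13 (adjusted p = 0.0481), the latter with overlapping groups and with a call lost without replicate 2, 3 or 4 of either group (adjusted p up to 0.219). Mrpl43, Mrpl49 and Mrps7 lost the call in 5, 4 and 2 of 8 fits without 1 library, with highest adjusted p of 0.129, 0.127 and 0.092. A fit of the 2 groups alone called 4 members in place of 14, Mrps12, Mrpl14, Mrpl18 and Mrpl20, and 769 in place of 2227 of all genes.

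Against all 20 other libraries, the 4 restricted mutants were the lowest for 4 members, Mrps12, Mrpl14, Mrps21 and Mrps7, where 1.25% of 11608 genes with a mean of at least 10 counts had that pattern. They were the highest for 1 member, Mrpl20, where 1.36% of those genes had it. For Mrps21 the restricted mutants had 20.4, 20.6, 18.5 and 21.8 CPM, and the lowest of the other libraries had 22.5 CPM. For Mrps7 they had 18, 19.2, 15.1 and 18.3 CPM, and the lowest of the others had 20.9 CPM. For Mrpl14 the highest restricted mutant had 20.28 CPM and the lowest of the others, a fed mutant, 20.74 CPM, so in these 3 genes the gap was narrow. Kupffer cell and macrophage markers summed to 454.1 CPM (412.4 to 534.1) in restricted mutants and 321.5 CPM (262.7 to 391.5) in restricted wild types. Hepatocyte markers summed to 174200 CPM (159400 to 198300) and 208000 CPM (173200 to 241800) in the same groups, with overlap. Of the 7 hepatocyte markers 1, Cps1, was higher in restricted mutants (0.71 ± 0.16), and 3, Ttr, Serpina1a and Apoa1, were lower. The part of these cell types in these differences was not tested.

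Several members with special roles passed in no comparison. Mrpl12, present in several copies in the flexible stalk, had 40.5 ± 0.958 CPM in fed young wild types, 50.8 ± 11.9 under restriction and 39.1 ± 5.43 in restricted mutants. Mrpl58, a hydrolase that frees peptides from stalled ribosomes, stayed between 21.7 and 23.6 CPM in all group means. The 3 members of the Mrps18 family did not pass either. Mrps18b had 28.7 ± 4.13 CPM in fed young wild types and 40.4 ± 6.49 at 104 weeks (0.49 ± 0.18, edgeR adjusted p = 0.0905), Mrps18c had 20.3 ± 0.931 and 16.3 ± 3.92 CPM, and Mrps18a had 22.0 ± 1.37 and 22.9 ± 2.81 CPM. Mrps36, the dehydrogenase subunit, ran from 9.06 to 12.4 CPM in the group means.

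Some mitochondrial ribosomal proteins carry other symbols and are no members: Dap3, Gadd45gip1, Ptcd3, Aurkaip1 and Chchd1. No member had all 12 mutant libraries on one side of all 12 wild-type libraries, a pattern held by 0.793% of 11608 genes. Dap3, a GTP-binding small-subunit protein, had it: 34.1 to 48.9 CPM in mutants against 17.9 to 26.9 CPM in wild types. It was higher in mutants by 0.72 ± 0.12 when fed (edgeR adjusted p = 0.000178) and by 0.84 ± 0.12 when restricted (adjusted p = 2.21e-05). Dap3 was singled out for this pattern after its values were seen. Gadd45gip1, a large-subunit protein, had 23.9, 23.0, 23.5 and 17.9 CPM in fed mutants and 15.2, 15.1, 14.1 and 14.6 CPM in restricted ones, and 20.4 to 28.8 CPM in restricted wild types. It fell under restriction in mutants by 0.58 ± 0.13, and the difference between the genotypes' changes was -0.80 ± 0.18 (adjusted p = 0.0308), the only 1 of the 5 such genes for which it passed. Ptcd3 was higher in restricted mutants than in restricted wild types by 0.54 ± 0.13 and Aurkaip1 fell under restriction in mutants by 0.43 ± 0.12, while Chchd1 passed in none of the 7 comparisons.

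Single factors that work with the mitochondrial ribosome changed as well. Of 15 mitochondrial translation factors, 4 rose and 1 fell under restriction in mutants (33.3%, against 11.6% of all genes), and 2 rose and 1 fell in wild types (20%, against 12.1%). Mtres1 (0.75 ± 0.17 in both genotypes), a factor that rescues stalled ribosomes, and Oxa1l (0.55 ± 0.14 in wild types and 0.53 ± 0.14 in mutants), which inserts new proteins into the inner membrane, rose in both. Gfm2, a ribosome recycling factor, fell in both, by 0.73 ± 0.14 and 0.52 ± 0.14. With age Gfm1, the elongation factor G, fell by 0.36 ± 0.10 and Rmnd1 by 0.82 ± 0.23, 13.3% of these factors against 9.34% of all genes. Of 19 mitochondrial aminoacyl-tRNA synthetases, 3 fell and 1 rose under restriction in wild types (21.1%) and 1 fell in mutants (5.26%). Fars2 was lower in mutants, fed (-0.87 ± 0.18) and restricted (-0.90 ± 0.18). Of 26 assembly factors, 4 were higher and 1 lower in restricted mutants than in restricted wild types, among them Mtg1 (0.70 ± 0.16), a GTPase. That is 19.2%, about the 18.2% of all genes in the same comparison. Of 19 genes for mitochondrial DNA and RNA expression, Hsd17b10 (-0.85 ± 0.15) and Tfam (-0.48 ± 0.15), which packages mitochondrial DNA, fell with age (10.5%, against 9.34% of all genes). Under restriction in mutants none of these 19 passed by edgeR and 2 (10.5%) had an unadjusted p under 0.05, against 25.5% of all genes.

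Between fed and restricted mice of a genotype, cytosolic ribosomal protein genes and respiratory chain genes moved largely in 1 direction. Under restriction 62 of 78 cytosolic ribosomal protein genes tested (79.5%) rose in wild types and 36 (46.2%) in mutants, and none fell, where 5.44% and 5.59% of all genes rose, with medians of 1.20 and 0.94. Of 76 nuclear-encoded respiratory chain genes 7 (9.21%) rose in wild types and 31 (40.8%) in mutants, and none fell, with medians of 0.15 and 0.28. The members' medians were 0.00 and -0.10. Between restricted genotypes, 6 of the respiratory chain genes were higher and 7 lower in mutants, 17.1% against 18.2% of all genes.

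Some members start close to another gene. By the annotation, 17 of the 78 members have a protein-coding neighbour in head-to-head orientation under 1000 bases away. The share among all genes was not computed. Mrps12 and Sars2 are such a pair, and in restricted mutants against restricted wild types Mrps12 differed by -1.46 while Sars2 differed by -0.08 ± 0.23 (edgeR adjusted p = 0.851). Mrpl36 differed by -0.93 while Ndufs6, a respiratory complex I subunit whose start is 21 bases away, differed by 0.06 ± 0.12 (adjusted p = 0.776). Mrpl49 and Fau, which encodes a cytosolic ribosomal protein fused to a ubiquitin-like one, went apart under restriction: Fau rose by 1.05 ± 0.22 in wild types and 1.09 ± 0.22 in mutants, and Mrpl49 had -0.06 ± 0.20 and -0.58 ± 0.21, neither of which passed. Other pairs went the same way. Under restriction Mrpl47 had 0.57 ± 0.20 in wild types and 0.51 ± 0.20 in mutants (adjusted p = 0.0581 and 0.0944), and Ndufb5, a complex I subunit, rose by 0.40 ± 0.13 and 0.48 ± 0.13 (adjusted p = 0.0478 and 0.0195). Between restricted genotypes Mrpl34 was lower by 0.65 on the log2 scale and Abhd8 had -0.81 ± 0.37 (adjusted p = 0.138). Under restriction in mutants Sars2 had -0.56 ± 0.23 (adjusted p = 0.125), in the direction of the -1.18 of Mrps12. Mrpl46 and Mrps11, members that face each other, passed in none of the comparisons. These pairs were picked after their values were seen. In all 25 members overlap another annotated gene, 20 of them a protein-coding one, and 4 members have annotated pseudogenes.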

How the data were processed

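Ribosome footprints were measured in 24 mouse livers, 6 groups of 4, with groups taken from the labels. The authors deposited a gene table of whole-number read counts, not normalized, as its values show. For these counts the submitters' processing notes name cutadapt 3.4, Trimmomatic 0.39, Bowtie2 2.4.2, STAR (2.7.0f, 2.7.8a) and featureCounts (Subread 1.6.4), with build GRCm38.p6. The annotation release, the use of strand and the handling of multiply matching reads are not given in these sources. The deposited table of open reading frames was not used, since it names no genes.

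Counts were tested with edgeR 4.0.16 in R 4.3.3: filterByExpr, TMM scaling, a robust quasi-likelihood fit over all 24 libraries with 1 term per group (18 residual degrees of freedom), 2-sided, with Benjamini-Hochberg adjustment over 12211 genes and a threshold of 0.05. Standard errors were derived from the change and its F statistic. The test was also run on simulated counts, for fed mutants against fed wild types alone and without other differences between groups. Its outcome is not reported here and does not cover the other comparisons. Alternatives were RLE factors, total counts alone, 2 other filters, leaving out the 50 most abundant genes, a replicate block, only the groups compared, another membership, DESeq2 1.42.0 and each library left out. Members, gene lists and tests were chosen with earlier results of these data known. Named were all members that passed (where over 12 did, the largest 6 in each direction, with the others by range) and 7 with special roles. Footprint density per codon and protein features, which the design listed, were not computed, because no protein table was used here.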

Additional observations from a re-analysis of the deposited data

Results flagged for a closer look

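In groups of 4 livers, 1 library stood far from the other 3 in 4 of 174 groups examined. Chance gives about 1 in 20. Mrpl27 had 28.35 CPM in fed young wild-type replicate 3, against 22.92 to 23.53 CPM in the others of its group. Mrps28 had 23.16 CPM in fed young wild-type replicate 2, against 25.49 to 25.88 CPM. Mrpl57 had 20.73 CPM in fed 16-week mutant replicate 3, against 13.75 to 14.84 CPM. The ratio of large-subunit to small-subunit footprints was 2.183 in old wild-type replicate 4, against 2.06 to 2.076 in the other old livers.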

How the results depend on the processing

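None of 36 results for single named genes changed direction under any setting tried. Of these, 11 kept their side of the threshold in every alternative and in every fit without 1 library: Mrps12, Mrpl14 and Mrpl20 in both comparisons of restricted mutants, Mrpl18 between restricted genotypes, Mrpl27 in wild types, and Mrpl10, Mrpl15 and Mrpl57 in mutants. The number of members that passed in fed mutants against fed wild types was 1 with total counts alone and 1 with no filter, in place of 3 (all genes 1190 and 1044, in place of 1310). Under restriction in wild types it was 3 with no filter, 1 in a fit of only the groups compared and 10 by DESeq2, in place of 5 (all genes 1213, 658 and 1833, in place of 1483). A fit of only the groups compared gave 2 members with age and 4 between restricted genotypes, in place of 0 and 14 (all genes 1364 and 769, in place of 1141 and 2227). For the difference between the genotypes' responses it was 1 with membership by structure (Gadd45gip1), 1 with no filter, 1 with the stricter filter and 2 by DESeq2, in place of 0 (all genes 98, 88, 100 and 271, in place of 98). The cause was not tested.

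With total counts alone, the median of all genes moved to 0.11 in fed mutants against fed wild types, 0.1143 in mutants between 7 and 16 weeks and 0.1078 between restricted genotypes. The members' medians moved with it, to 0.1041, 0.1094 and 0.0846. Replicate numbers were not shown to pair the livers. Deviations of same-numbered libraries had a mean correlation of 0.00707 (10 of 60 pairs over 0.1), and differently numbered ones -0.00218 (11 of 180). Correlations over 0.1 were thus a larger share of the same-numbered pairs, and a mean cannot exclude that some livers were paired. With the replicate number as a block 1 member, Mrps12, passed for the difference between genotypes in place of 0.

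Leaving out 1 library gave 0 to 2 members in fed mutants (0 without mutant replicate 1, 1 without wild-type replicate 1, 2 or 4), 0 to 1 with age (1 without old replicate 2) and 0 to 0 in mutants between 7 and 16 weeks. It gave 3 to 10 under restriction in wild types (10 without restricted replicate 2, 3 without fed replicate 1 or 2 or restricted replicate 1), 7 to 11 in mutants (7 without fed replicate 2 or 3), 11 to 15 between restricted genotypes and 0 to 3 for the difference between genotypes (3 without restricted wild-type replicate 2, 1 without restricted wild-type replicate 1 or 4 or fed mutant replicate 1). The medians ran from -0.0335 to 0.0286, -0.1076 to -0.0712, -0.0321 to 0.0136, -0.0576 to 0.0751, -0.1319 to -0.0722, -0.0796 to 0.0129 and -0.1436 to -0.0163 for fed mutants against fed wild types, age, 7 to 16 weeks, restriction in wild types, restriction in mutants, restricted genotypes and the difference, in that order. With 4 livers a group, changes of the size most members showed could not be told from 0.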
